A study of Mus musculus with 6 samples.

Results

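Genes of the major histocompatibility complex (MHC) and of antigen presentation were examined in gastrocnemius muscle of young and aged mice. They were chosen by name, as every mouse gene whose symbol begins with H2- together with B2m, Cd74, Tap1, Tap2, Tapbp, Ciita and Nlrc5. RefSeq lists 57 such genes. Of these, 42 had at least 1 probe on the array (52 probes in all), out of 21370 genes with a named probe. Of the 42, 27 were bright enough to be tested, out of 13844 named genes tested. The 20900 genes tested in all also include probe targets without a matched symbol, each counted as a gene. The young group was 3 male mice aged 13 weeks and the aged group 3 male mice aged 26 months. The labels name no treatment, and the study's methods give C57BL/6J as the strain of its mice. Total RNA of each muscle was labelled with Cy3 and hybridized to 1 single-colour Agilent array. The whole muscle was used, so fewer cells of a type and less RNA per cell cannot be told apart in any value below. The arrays measured these mice once each, and the p-values measure the spread between the 3 mice of a group.

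MHC class I molecules are present on nearly all nucleated cells and show peptides from the cytosol to CD8+ T cells. They consist of a heavy chain (H2-K1 and H2-D1 are the classical heavy chains measured here, and the Q, T and M genes the non-classical ones) and of the light chain B2m. Peptides are carried into the endoplasmic reticulum by Tap1 and Tap2 and loaded with the help of Tapbp, and Nlrc5 is the transactivator of the class I genes. MHC class II molecules are made mainly by macrophages, dendritic cells and B cells and show peptides from endosomes to CD4+ T cells. Their alpha and beta chains are encoded by H2-Aa, H2-Ab1 and H2-Eb1, the invariant chain Cd74 occupies the groove until H2-DM (H2-DMa with H2-DMb1 or H2-DMb2) exchanges it for peptide, and Ciita is the transactivator that switches the class II genes on. Healthy skeletal muscle fibres are known for low class I and hardly any class II.

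The elements through which these factors act lie just upstream of the gene starts. The upstream sequences of 3 class II genes are shown because the median age difference was larger over the class II genes than over the class I genes. They were read from the RefSeq promoter windows of GRCm38.p6, at chr17:34305751-34305840 (plus strand) for H2-Eb1, chr17:34287839-34287928 (minus strand) for H2-Aa and chr17:34153073-34153162 (plus strand) for H2-DMb1, all on the strand of the gene. Capitals mark the Y box, GATTGG on either strand, and in H2-Eb1 also the X1 box, AGCAACNG.

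H2-Eb1: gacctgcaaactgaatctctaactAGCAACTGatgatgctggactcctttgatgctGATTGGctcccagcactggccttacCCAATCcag
H2-Aa: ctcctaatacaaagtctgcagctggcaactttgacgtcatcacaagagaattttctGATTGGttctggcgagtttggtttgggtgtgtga
H2-DMb1: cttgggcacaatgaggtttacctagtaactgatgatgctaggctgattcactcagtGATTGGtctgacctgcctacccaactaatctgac

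The first Y box began 60 bases before the start of H2-Eb1, 49 before that of H2-Aa and 62 before that of H2-DMb1. GATTGG was found on either strand in the windows (250 bases before to 50 after the start) of all 8 class II genes that have one, in those of 17 of 23 class I genes, and in 16.1% of all 32851 windows. AGCAACNG was found in 2 of the 8 class II genes (H2-Eb1 and H2-Eb2), in 1 of the 23 class I genes (H2-M3) and in 5.14% of all windows. H2-Ab1 has no window in the table used.

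For class I, the upstream sequences of H2-K1, H2-D1 and H2-Q7 are shown because these heavy chain genes share the same arrangement of motifs. They lie at chr17:34000389-34000473 (minus strand), chr17:35262908-35262992 (plus strand) and chr17:35439007-35439091 (plus strand). Capitals mark first the enhancer A, GGGANTCCC, and then an interferon response motif, GAANTGAAA, which here stands on the opposite strand. The second motif was added after these sequences had been read.

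H2-K1: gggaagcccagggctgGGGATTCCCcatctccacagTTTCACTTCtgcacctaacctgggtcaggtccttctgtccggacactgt
H2-D1: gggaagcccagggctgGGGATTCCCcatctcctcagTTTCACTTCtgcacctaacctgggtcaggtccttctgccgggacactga
H2-Q7: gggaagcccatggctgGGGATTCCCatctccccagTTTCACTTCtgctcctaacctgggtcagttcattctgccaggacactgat

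The enhancer A began 110 bases before the start in H2-K1, 170 in H2-D1 and 132 in H2-Q7. GGGANTCCC was found in 4 of 23 class I windows (also in H2-Q6), in 0 of 8 class II windows and in 0.767% of all windows. GAANTGAAA was found in 7 of 23 class I windows, in 0 of 8 class II windows and in 1.83% of all windows. The other interferon response motif searched, GAAANNGAA, was in 2 class I windows (H2-T22 and H2-T23), in no class II window and in 8.56% of all windows. A match describes the letters only.

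For the values below, the log2 signal of a probe was taken relative to the 75th percentile of its array, so that 0 is that percentile. Over all non-control spots, flagged included, the 75th percentile of the signal was 243 to 355 in young and 321 to 368 in aged mice. The percentile subtracted was taken over probes, without flagged spots. None of the 27 genes passed an adjusted p of 0.05 in limma, adjusted over all 20900 genes tested, and the lowest adjusted p was 0.160. Among all genes, 0.196% were called higher and 0.0574% lower in aged mice. Ciita was above background in aged mice only, so it entered the test through the group in which it was high, and it is left out of the next counts. Of the other 26, at an unadjusted p under 0.05 in limma, 5 were higher (H2-Eb1, H2-Ab1, H2-DMb1, Cd74 and H2-Q5) and 0 lower, beside 6.06% and 8.38% of all genes. In 4 of the 26 every aged mouse was above every young mouse (H2-Eb1, Cd74, H2-K1 and H2-Q5) and in none below, beside 7.92% and 13.9% of all genes. By sign alone, 20 of the 26 were higher and 6 lower, with a median log2 fold change of 0.18 against -0.06 for all genes tested, and with Ciita 21 of 27 were higher. When arrays were scaled to their median instead, all genes moved down by 0.15 on the log2 scale at the median, and 16 of the 27 were higher and 11 lower.

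**Figure D1:**
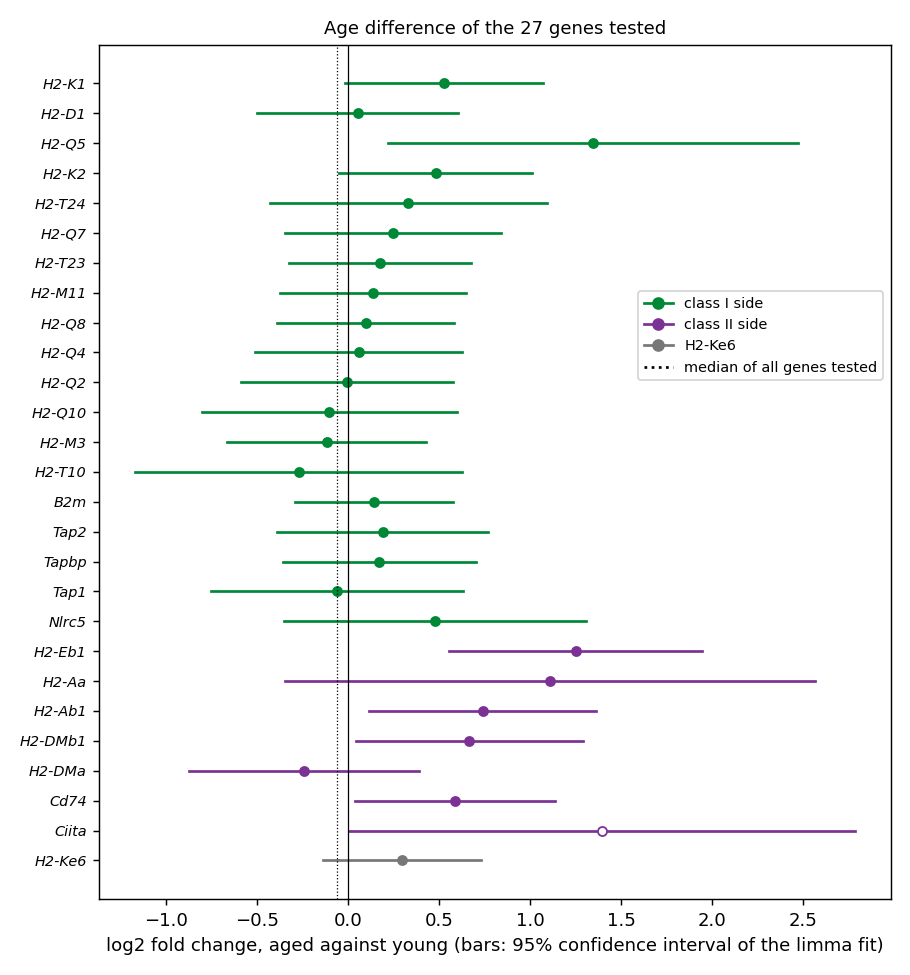
Log2 fold change of the 27 genes tested, aged against young mice (x axis), grouped by role, with bars for the 95% confidence interval of the limma fit and a dotted line at the median of all genes (-0.06). The intervals of H2-Eb1, H2-Ab1, H2-DMb1, Cd74 and H2-Q5 lie above 0, and no interval lies below 0. The open point is Ciita, whose young values were not well above background, so that its point and interval are no measure of its difference.

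The class II chains had larger age differences at the median than the class I heavy chains. The median log2 fold change was 0.74 over the 5 class II genes tested and 0.12 over the 14 class I genes. Of the class II genes 4 were higher in aged mice and 1 lower, and 3 had an unadjusted p under 0.05 in limma. That count was 1 without young mouse 2, young mouse 3, aged mouse 2 or aged mouse 3, and also under median scaling and with the slide row or the replicate number as a block. Of the class I genes 10 were higher and 4 lower, and 1 had an unadjusted p under 0.05. Both medians are descriptions without a test. Under median scaling the class I median was -0.03 and the class II median 0.59.

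H2-Eb1 (NM_010382), the beta chain of the E molecule, had the lowest adjusted p of the members. Its log2 signal reached 2.08, 1.30 and 1.28 in the young mice (1 to 3, in this order throughout) and 2.90, 2.40 and 3.11 in the aged mice. All aged mice were above all young mice, and young mouse 1 was the highest of its group. The difference was 2.38-fold, or 1.25 on the log2 scale (standard error 0.29; 95% interval 0.56 to 1.95; limma adjusted p = 0.160). It stayed between 1.099 and 1.51 when each mouse was left out in turn. The partner gene H2-Ea, which RefSeq lists as a transcribed pseudogene, had no matched probe, so the RNA of H2-Eb1 is no measure of the E molecule.

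H2-Ab1 (NM_207105) encodes the beta chain of the A molecule. It was at 3.73, 2.94 and 2.97 in young mice and at 3.72, 3.96 and 4.18 in aged mice. Young mouse 1 was level with aged mouse 1, so the groups overlapped, while the other young mice lay well below every aged mouse. The log2 difference between the ages was 0.74 (standard error 0.26, limma adjusted p = 0.289), and without young mouse 1 it was 0.999. The other H2-Ab1 probe had the same order of groups, with a difference of 0.88 between the means, and there young mouse 1 (3.20) was below all aged mice (3.39, 3.46 and 3.78).

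H2-Aa (NM_010378), the alpha chain that pairs with H2-Ab1, was at 0.12, -0.90 and -2.51 in young mice and at -0.24, 0.24 and 0.05 in aged mice. The aged mice lay close together and the young mice were spread over a wide range, with young mouse 1 inside the aged range and young mouse 3 far below all others. Its log2 fold change of 1.11 had the largest standard error among the members, 0.61 (limma adjusted p = 0.449). Without young mouse 3 it was 0.40 and without young mouse 1 it was 1.72.

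H2-DMb1 (NM_010387), the beta chain of the peptide exchange factor, was at 0.07, -0.78 and -0.59 in young mice and at -0.02, 0.31 and 0.42 in aged mice. Young mouse 1 overlapped with aged mouse 1, as for H2-Ab1. The log2 difference between the ages was 0.67 (standard error 0.26, limma adjusted p = 0.323). H2-DMa (NM_010386), the alpha chain of the same complex, went the other way in sign, from -0.76, -1.08 and -1.14 to -1.22, -0.77 and -1.72. Aged mouse 2 was inside the range of the young mice, and aged mice 1 and 3 were below it. The log2 fold change of -0.24 had a 95% interval from -0.87 to 0.39 (limma adjusted p = 0.699). It stayed below 0 in every alternative, between -0.47 and -0.00055. The probe of H2-Eb2 was well above background on 2 arrays, 1 of each group, and those of H2-DMb2, H2-Oa and H2-Ob on none, so these 4 class II genes were not tested.

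Cd74 (NM_001042605), the invariant chain, was at 3.32, 2.56 and 2.65 in young mice and at 3.40, 3.49 and 3.41 in aged mice. The aged mice lay within a narrow range just above young mouse 1, and the groups did not overlap. The difference was 1.51-fold, or 0.59 on the log2 scale (standard error 0.23, limma adjusted p = 0.322), and 0.83 without young mouse 1. Ciita (NM_001302619), the transactivator, was well above background on all 3 arrays of aged mice and on none of young mice. It was at -5.85, -3.58 and -3.74 in young mice and at -2.80, -3.00 and -3.19 in aged mice. Only a bound on the young mean can be given, and with it the aged mean was 1.80-fold higher, or 0.85 on the log2 scale. That value carries no interval for the spread between mice. The fitted log2 difference was 0.66 without young mouse 1 and 0.29 with normexp, both smaller. In the setting used the limma adjusted p was 0.345, and the mean log2 signal was -4.39 in young and -3.00 in aged mice. The bound uses, for each young array, the higher of the dimmest signal well above background and the signal of the probe.

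**Figure D2:**
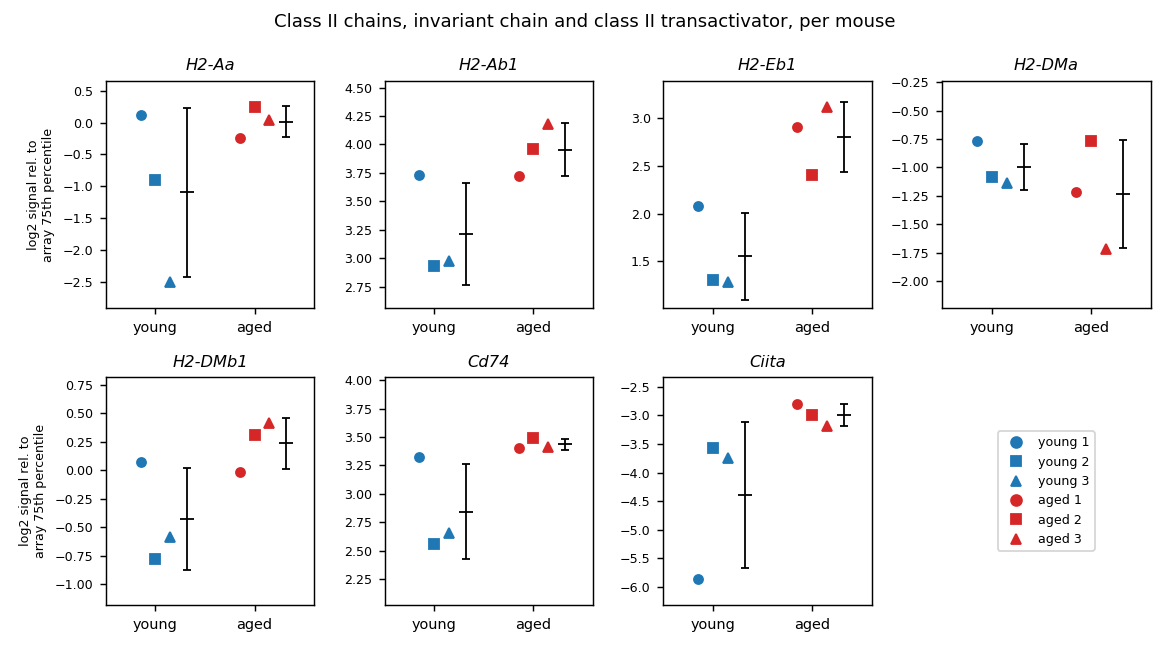
Log2 signal relative to the 75th percentile of the array (y axis, a scale of its own in each panel) for each mouse, with the mean and SD of each group (n = 3) beside the points. Young mouse 1 (blue circle) is the highest young mouse in every panel but Ciita, and aged mice are all above young mice for H2-Eb1, Cd74 and Ciita.

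Young mouse 1 had the highest value of its group for all 5 class II genes tested. Taken as the median over the 5 genes of the log2 difference from the young mean, class II was at 0.52, -0.25 and -0.24 in the young mice and at 0.51, 0.75 and 0.97 in the aged mice. Young mouse 1 was thus level with aged mouse 1, and the other young mice were below. Leaving out young mouse 1 gave a class II median of 0.999, and leaving out any other mouse gave 0.59 to 0.86. The 3 young arrays and that of aged mouse 1 were in row 1 of the slide and those of aged mice 2 and 3 in row 2. Within row 1 the class II median was 0.51 and the class I median 0.31, from a single aged mouse, and row 2 holds aged mice only.

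Among the classical class I heavy chains, H2-K1 (NM_001001892) was at 5.28, 4.68 and 5.29 in young mice and at 5.86, 5.42 and 5.56 in aged mice. All aged mice were above all young mice, with aged mouse 2 only just above young mice 1 and 3. The difference was 1.44-fold, or 0.53 on the log2 scale (standard error 0.23, 95% interval -0.02 to 1.07, limma adjusted p = 0.360). The other H2-K1 probe differed by 0.60. H2-D1 (NM_010380) was at 4.89, 4.44 and 4.33 in young mice and at 4.69, 4.86 and 4.27 in aged mice. Its groups overlapped over nearly their whole range, with a log2 fold change of 0.05 and a 95% interval from -0.50 to 0.61 (limma adjusted p = 0.930). Whether the age differences of H2-K1 and H2-D1 differ was not tested.

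H2-K2 and H2-Q5 are transcribed pseudogenes of the class I family by RefSeq. H2-K2 (NR_004446) was at 4.24, 3.69 and 3.75 in young mice and at 4.66, 4.27 and 4.19 in aged mice. Young mouse 1 lay among the aged mice and the other young mice below them, and the log2 fold change of H2-K2 was 0.48 (limma adjusted p = 0.382). The other H2-K2 probe differed by 0.60. H2-Q5 (NR_051981) had the largest difference among the class I genes, with -0.42, -1.86 and -0.71 in the young group and 1.01, -0.36 and 0.39 in the aged group. The groups did not overlap, but aged mouse 2 was barely above young mouse 1. The log2 difference between the ages was 1.34 (standard error 0.47, 95% interval 0.22 to 2.47, limma adjusted p = 0.288), and it ranged from 0.91 to 1.70 when each mouse was left out in turn.

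The other class I heavy chain genes overlapped between the groups. In the Q region, which holds the Qa family of non-classical molecules, the log2 fold changes were -0.01 for H2-Q2, 0.06 for H2-Q4, 0.25 for H2-Q7, 0.10 for H2-Q8 and -0.10 for H2-Q10. In the T region they were -0.27 for the pseudogene H2-T10, 0.18 for H2-T23, which encodes the Qa-1 molecule, and 0.33 for H2-T24. In the M region they were -0.12 for H2-M3, which presents N-formylated peptides, and 0.14 for H2-M11. Under median scaling the signs of H2-Q4, H2-Q8 and H2-M11, and those of H2-D1 and B2m, turned to below 0. Every 95% interval of these 10 genes included 0, and their adjusted p ran from 0.657 to 0.993. Aged mouse 3 had the lowest of the 6 values in 4 of the 14 class I genes and aged mouse 1 the highest in 7.

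The probes of a gene did not always move alike. The 2 probes of H2-Q10 differed by -0.10 and 1.11 between the group means, and the second of these probes cleared the background on 1 array of young mice and on 3 of aged mice. Those of H2-T24 differed by 0.33 and -0.67, and those of H2-Q2 by -0.01 and -0.29. Class I genes are close in sequence, the probe sequences were not used here, and the part of shared hybridization in these values was not tested. The 11 class I genes with a probe that were not tested (H2-M1, H2-M10.1, H2-M10.2, H2-M10.3, H2-M10.4, H2-M10.6, H2-M5, H2-M9, H2-Q1, H2-T-ps and H2-T3) were well above background on no array.

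**Figure D3:**
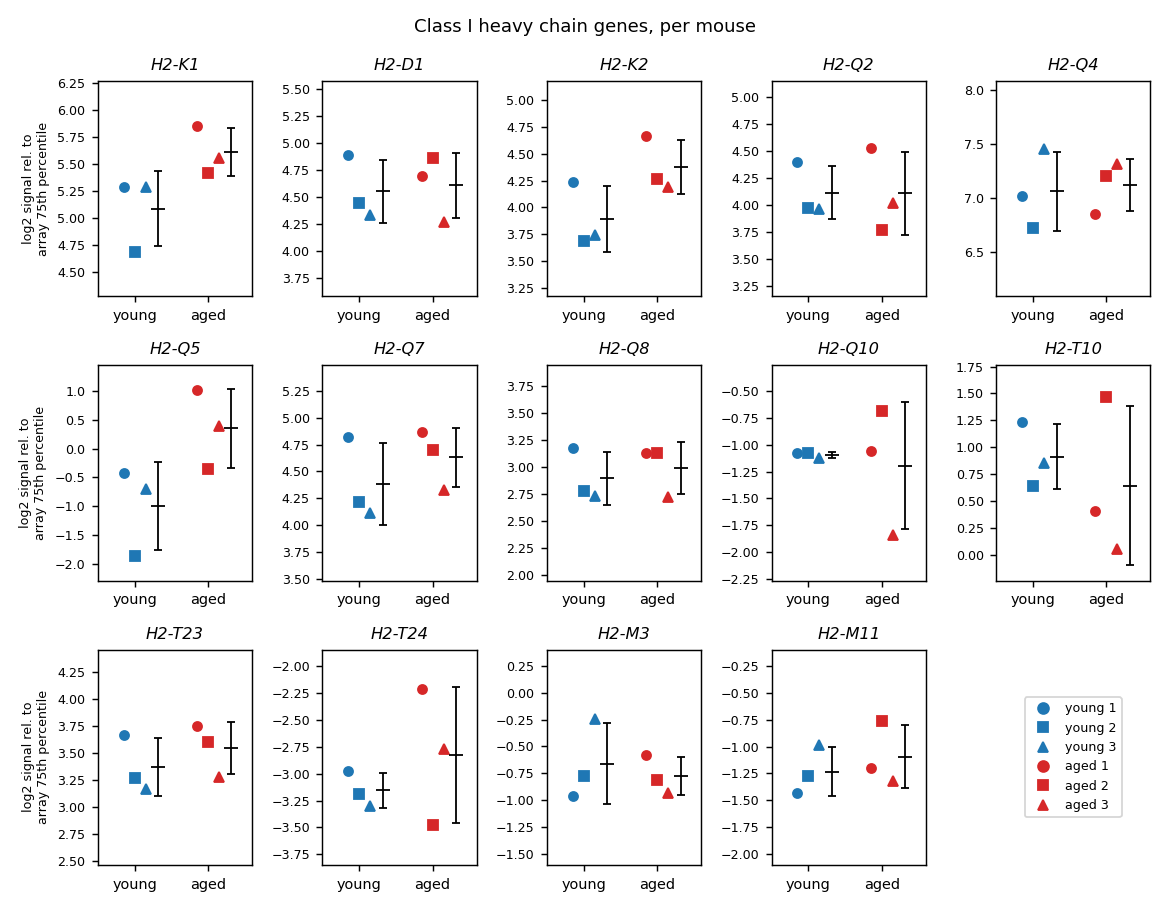
Log2 signal relative to the 75th percentile of the array (y axis, a scale of its own in each panel) of the 14 class I heavy chain genes for each mouse, with the mean and SD of each group (n = 3) beside the points. The groups are apart for H2-K1 and H2-Q5 and overlap for the other 12.

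For the partners of the class I heavy chains, the groups overlapped throughout. B2m (NM_009735), the light chain, was at 4.89, 4.46 and 4.94 in young mice and at 4.97, 4.89 and 4.86 in aged mice. Aged mice 2 and 3 were inside the range of the young mice, and the log2 fold change was 0.14, with a 95% interval from -0.29 to 0.58 (limma adjusted p = 0.744). The peptide transporter genes Tap1 and Tap2 had log2 fold changes of -0.06 and 0.19, and Tapbp, the chaperone that bridges transporter and heavy chain, of 0.17. For none of these 3 did the 95% interval exclude 0. Nlrc5 (NM_001033207), the class I transactivator, was at -1.64, -2.66 and -1.65 in young mice and at -1.86, -1.62 and -1.03 in aged mice. Young mouse 2 was lowest and aged mouse 3 highest, with overlap between them, and the log2 fold change was 0.48 (standard error 0.35, limma adjusted p = 0.557). H2-Ke6 was a member by its symbol only. It encodes a hydroxysteroid dehydrogenase, and its log2 fold change was 0.30 (limma adjusted p = 0.490).

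Other genes of the pathway were read from lists. For the counts below, the shares over all genes tested were 7.92% above and 13.9% below without overlap. At an unadjusted p under 0.05 in limma they were 6.06% higher and 8.38% lower. Among 9 class I presentation partners tested (chaperones, the trimming peptidase and immunoproteasome subunits), 4 were higher and 5 lower, with a median log2 fold change of -0.04 and 0 called (1 lower at an unadjusted p under 0.05 in limma); under median scaling 2 were higher and 7 lower. In 1 every aged mouse was above every young mouse and in 4 below. Psme1, a proteasome activator subunit, was lower in every aged mouse (log2 fold change -0.71, limma adjusted p = 0.266), as was the immunoproteasome subunit Psmb10 (-0.35, adjusted p = 0.461). Pdia3, the oxidoreductase of the loading complex, was higher in every aged mouse (0.61, adjusted p = 0.354). Among 10 class II presentation partners tested, 6 were higher and 4 lower, with a median of 0.17 and 0 called (3 higher at an unadjusted p under 0.05 in limma); under median scaling 5 were higher and 5 lower. The largest differences without overlap were those of the lysosomal thiol reductase Ifi30 (1.57, adjusted p = 0.339), the class II ubiquitin ligase Marchf1 (1.38, adjusted p = 0.178) and the lysosomal protease Lgmn (0.89, adjusted p = 0.249). For Ifi30, young mouse 3 (-1.74) was far below young mice 1 and 2 (0.86 and 0.42). The same mouse was far below the other young mice for H2-Aa. It was so too for genes outside this pathway, the macrophage marker Lyz2 and the endothelial markers Pecam1 and Tek.

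Of 12 interferon regulators, 5 were higher and 7 lower, with a median of -0.16, 0 called, and 3 lower at an unadjusted p under 0.05 in limma; under median scaling 1 was higher and 11 lower. The 3 were the receptor chains Ifngr2 (-0.44) and Ifnar2 (-0.49) and the kinase Jak2 (-0.54), each lower in every aged mouse. Over all genes tested, 8.38% were lower at that p and 13.9% were lower in every aged mouse. Of 6 MHC-like genes outside the H2 region, 1 was higher and 5 lower, with a median of -0.31, and Fcgrt, the neonatal Fc receptor heavy chain, was lower in every aged mouse (-0.64, limma adjusted p = 0.273). Only 3 of 11 genes on a list of receptors for MHC molecules and their relatives were tested. Pirb, an inhibitory receptor of myeloid and B cells for class I, was at 0.01, 0.21 and 0.13 in young mice and at 1.41, 1.42 and 1.82 in aged mice. The groups were far apart and each was narrow, and Pirb passed the threshold (log2 fold change 1.43, standard error 0.18, limma adjusted p = 0.043). It passed in 7 of the 17 alternatives, among them the series matrix, whose values are identical to those used. In the alternatives where it did not pass, its limma adjusted p reached up to 0.175 (without young mouse 1). The log2 fold change of Pirb stayed between 1.26 and 1.501 over all alternatives. Lilrb4a, a related inhibitory receptor, differed by 1.28 without overlap (adjusted p = 0.104), and the T cell coreceptor Cd4 by -0.19. Cd8a, Cd8b1, Klrc1, Klrd1 and Klrk1, which are receptors of cytotoxic T and NK cells, were well above background on no array.

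Markers of the cells that could carry MHC molecules in muscle were read beside these values. Of 11 macrophage markers tested, 8 were higher and 3 lower, 7 did not overlap, all higher, and the median log2 fold change was 0.55, with 0 called and 5 higher at an unadjusted p under 0.05 in limma. Over all genes tested, 7.92% were higher without overlap and 6.06% were higher at that p. Per mouse, the median difference of the macrophage list from the mean of young mice was -0.03, -0.03 and 0.11 in young mice and 0.60, 0.46 and 0.66 in aged mice. The macrophage medians include Fcgr1, which was well above background in aged mice only. By the medians per mouse, young mouse 1 was at -0.03 for macrophage markers and at 0.52 for class II. Among the single macrophage markers it was the highest young mouse for some and the lowest for others. The summed macrophage signal, in multiples of the 75th percentile, was 44.1 to 52.0 in young and 50.4 to 52.6 in aged mice. In this and the sums below the brightest probes weigh most. For macrophages these were the probes of Itgam and Csf1r, both lower in sign (-0.26 and -0.05). Cd163 was above background on no array. The lysosomal Cd68 differed by 1.08 on the log2 scale (limma adjusted p = 0.175). Fcgr1, the high-affinity IgG receptor, was well above background on all 3 arrays of aged mice and on none of young mice. This allows only a bound on the young mean, and with it the aged mean was 2.14-fold higher, without an interval for the spread between mice. Its limma adjusted p was 0.063, and the mean log2 signal was -4.52 in young and -2.89 in aged mice. Without Fcgr1, which passed the filter through the aged mice alone, 7 of 10 macrophage markers were higher, 6 without overlap and 4 at an unadjusted p under 0.05 in limma, with a median of 0.51.

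Of 6 dendritic cell markers tested, 3 were higher and 3 lower, all with overlap (median 0.15), and the summed signal was 0.57 to 0.93 in young and 0.84 to 1.13 in aged mice. Flt3 and Ccr7 were well above background on 2 young arrays and 1 aged array each, and Itgax (1.31) on 1 young and 3 aged. With probes above background on all arrays, 1 was higher and 2 lower (median -0.02). With normexp, 2 were higher and 4 lower (median -0.05). Xcr1 and Clec9a, which define one dendritic lineage, were above background on no array. Of the B cell markers 3 of 6 were tested, all lower in sign (median -0.40, summed signal 1.23 to 1.41 and 0.75 to 1.23), and Ms4a1 was above background on no array. Of the T cell markers only Cd3e was tested (-0.02, signal 0.99 to 1.08 and 0.76 to 1.35), and Cd3g, Lck and Trat1 were above background on no array. Endothelial markers were lower in sign in 4 of 6 (median -0.44, summed signal 19.4 to 22.7 and 13.2 to 16.4), or in 6 of 6 without young mouse 3. Of these markers 0 were called. Lower without overlap were 2, beside 13.9% of all genes tested. The same 2 were lower at an unadjusted p under 0.05 in limma, beside 8.38%. These 2 were Cdh5, the cadherin of endothelial junctions (-0.79, limma adjusted p = 0.215), and the adhesion molecule Esam (-0.52, adjusted p = 0.258). Muscle fibre markers were lower in sign in 7 of 7 (median -0.18, summed signal 5949 to 7228 and 4912 to 6456), or in 5 of 7 after quantile normalization. The fast troponin T gene Tnnt3 was lower in every aged mouse (-0.27, limma adjusted p = 0.465). The part of each cell type in the MHC values was not tested.

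**Figure D4:**
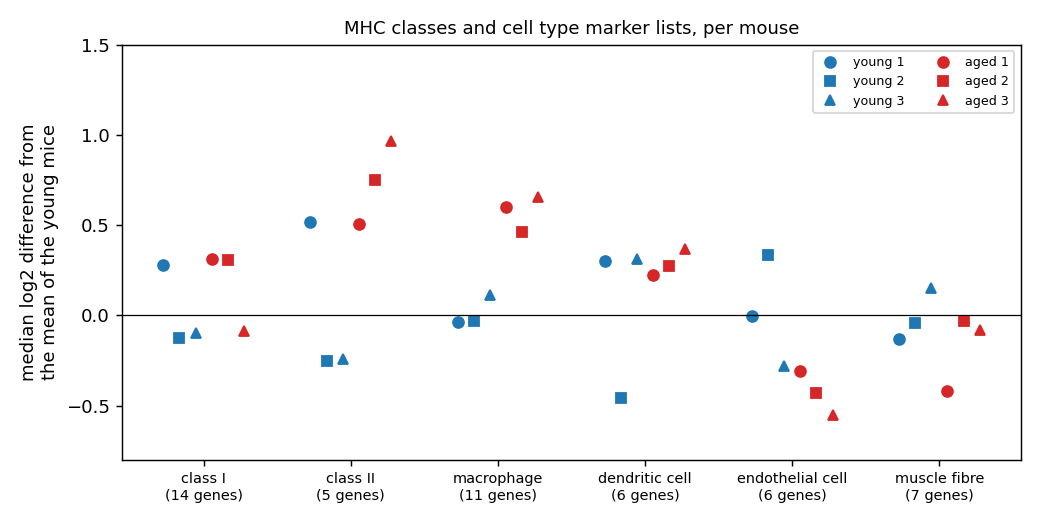
Median log2 difference from the young mean (y axis) over the genes of each MHC class and marker list, 1 point for each mouse. Macrophage values of aged mice lie above and endothelial values below those of all young mice. The macrophage list includes Fcgr1, which was well above background in aged mice only. Young mouse 1 is at 0.52 for class II and at -0.03 for the median of the macrophage markers.

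The order of the 2 classes was set against the processing. The class II median was above the class I median in the setting used and in all 17 alternatives run, from 0.51 to 0.999 against -0.03 to 0.31. Some of these could not change the order. The series matrix, the mean-variance trend and the replicate block leave fold changes as they are. The filter for probes above background on all arrays kept the same class genes. Each of these gave 0.74 and 0.12 again. Median scaling and the percentile over detected probes move all fold changes by the same amount, so they could not change the order either. Within single mice the order was less clear. Class II minus class I was 0.24, -0.12 and -0.14 in young mice and 0.20, 0.44 and 1.06 in aged mice, so young mouse 1 and aged mouse 1 overlapped. No member passed the threshold in any of the alternatives.

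**Figure D5:**
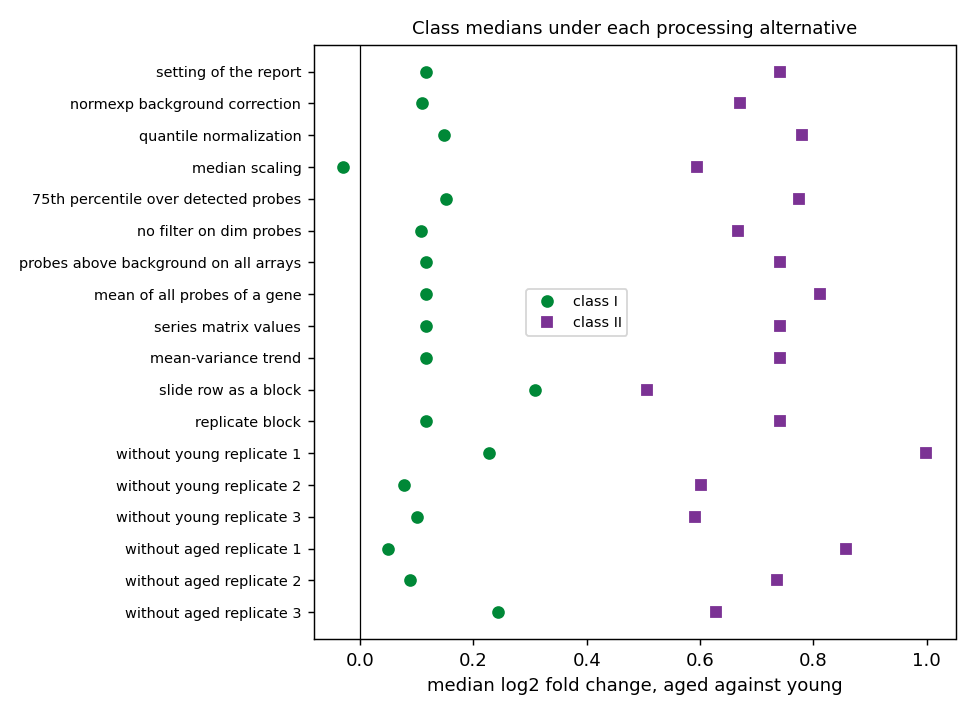
Median log2 fold change of the 14 class I and 5 class II genes (x axis) in the setting used and in each processing alternative; without the filter on dim probes the medians are over 25 and 9 genes. The class II median stays right of the class I median in each, and they are nearest with the slide row as a block (0.51 and 0.31). Alternatives that change no fold change, or all by the same amount, could not alter this order.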

How the data were processed

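The authors deposited the Agilent Feature Extraction output of each array, version 11.0.1.1 per the file headers (9.5 in the submitters' processing notes), with intensities on a linear scale, background-subtracted and detrended within the array but not scaled between arrays. Values in the deposited series matrix were identical to these intensities. Here, spots flagged as non-uniform or outliers were left out (12 probes lost), log2 signals of a probe's spots were averaged, and the array's 75th percentile over probes was subtracted. Accessions were matched to RefSeq (GRCm38.p6), which named 28331 of 55681 probes. A probe was kept when well above background on at least 3 of 6 arrays, and a gene was its kept probe with the highest mean. No spot was saturated. The age effect was fitted with limma 3.58.1 (lmFit, eBayes, two-sided) under R 4.3.3, with Benjamini-Hochberg adjustment over 20900 genes called at 0.05. The script was first tested on simulated data. An exact permutation test of 3 against 3 cannot go below 0.1. Every member with a kept probe is named, and of the other lists genes past the threshold, or without overlap and among the 3 largest changes of their list. Naming the brightest gene of a list was dropped, since levels of different probes are not compared outside the summed signals. Cd4, Cd3e, Itgam, Csf1r, Lyz2, Flt3, Ccr7, Itgax, Pecam1, Tek and genes on no array were named besides, after their values were seen. The members and lists were chosen with earlier results of these data known. The alternatives were normexp on the median signal (offset 50), quantile or median scaling, the percentile over detected probes, other filters, the mean of all probes, the series matrix, a mean-variance trend, a block for the slide row or for the replicate number, and each mouse left out in turn. The 6 arrays were on 1 slide and in 1 scan. The number of arrays limits the precision.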

Additional observations from a re-analysis of the deposited data

How the results depend on the processing

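The count of all genes past the threshold was 53. It was 8 without the filter on dim probes, 35 with probes above background on all arrays, 5 with the replicate block, and between 1 (without aged mouse 3) and 199 (without aged mouse 1) when a mouse was left out. Of the members 0 passed in the setting used and in each of the 17 alternatives, while the members with an unadjusted p under 0.05 in limma, 6 in the setting used with Ciita included, were 9 with the mean of all probes, 3 with median scaling or the replicate block, and 2 without young mouse 2 or aged mouse 3. The replicate numbers share only a number: deviations of same-numbered mice correlated at -0.06, -0.27 and 0.03. The paired fit leaves the class medians at 0.12 and 0.74, since a balanced block cannot change a fold change. Of 458 pairs of a gene and an alternative, 426 kept the sign of the log2 fold change and 32, from 11 genes, did not. The series matrix, the mean-variance trend and the replicate block cannot change a sign, and their pairs are among the 426.

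Under median scaling, the sign turned for B2m (-0.0049), H2-D1 (-0.0945), H2-M11 (-0.0094), H2-Q4 (-0.0873) and H2-Q8 (-0.0502). It turned with normexp for H2-M3 (0.0403) and H2-Q2 (0.0081), with quantile normalization for H2-Q2 (0.0487), with the percentile over detected probes for H2-Q2 (0.0289), and with the mean of all probes for H2-Q10 (0.51) and H2-T24 (-0.17). With the slide row as a block, H2-M3 was at 0.0773, H2-Q10 at 0.0348, H2-Q2 at 0.42, H2-Q4 at -0.21 and Tap1 at 0.44. Leaving out each mouse gave ranges across 0 for B2m (-0.0080 to 0.23), H2-D1 (-0.073 to 0.22), H2-M11 (-0.027 to 0.26), H2-M3 (-0.27 to 0.0908), H2-Q10 (-0.36 to 0.22), H2-Q2 (-0.22 to 0.16), H2-Q4 (-0.11 to 0.25), H2-T10 (-0.68 to 0.0247) and Tap1 (-0.31 to 0.16). The cause was not tested. For the class medians, leaving out each mouse gave 0.05 to 0.24 for class I and 0.59 to 0.999 for class II.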
